A study of Mus musculus with 6 samples.

Results

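The collagen genes were compared between colon tumours of Trim21 knockout mice (Trim21 -/-, 3 samples) and of wild-type mice (Trim21 +/+, 3 samples). All of these mice had received AOM and DSS, that is azoxymethane, a carcinogen, and dextran sulfate sodium, which injures the colon lining. The members are every gene symbol of the deposited count tables made of Col, a type number, the letter a and a chain number. This gave 44 genes of the 26214 features. The labels state neither the age nor the sex of the animals, nor how the Trim21 allele was made, nor whether a sample was 1 tumour or a pool. The p-values therefore speak only of the variation among the 6 sequenced samples, which the labels call biological replicates. Bulk RNA was sequenced after ribosomal RNA removal, so fewer cells of a type and less RNA per cell cannot be told apart.

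Collagens are secreted proteins whose chains wind around each other into a rope-like helix. Fibrillar collagens of types I, III and V build the banded fibres of connective tissue, and in the gut wall they come mainly from fibroblasts. Type IV forms the sheet-like network of basement membranes under epithelium and around vessels and muscle cells. Type VI assembles into beaded filaments between cells and fibres. The FACIT collagens, which have interrupted helices, attach to the surface of fibrils. The remaining members are the anchoring fibril collagen Col7a1, the short-chain network collagens Col8a1, Col8a2 and Col10a1, the transmembrane collagens Col13a1, Col17a1, Col23a1 and Col25a1, the multiplexins Col15a1 and Col18a1 of vascular and epithelial basement membranes, and Col26a1 and Col28a1.

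Promoter windows show how some of the chains described below are arranged in the genome. The RefSeq table for GRCm38.p6 holds 38 windows for 35 of the members, each running from 250 bases before to 50 bases after an annotated start. Col4a1 and Col4a2 encode the chains of the main type IV collagen and lie head to head on chromosome 8. Their starts, at 11312826 and 11312805, are placed so that the transcripts overlap by 22 bases, and the windows share 78 bases. The other type IV genes also lie head to head, Col4a3 with Col4a4 and Col4a5 with Col4a6, with annotated starts 72 and 1309 bases apart. Col3a1 is shown as the fibrillar member with the highest level. Col6a1 and Col6a2, neighbours on the minus strand of chromosome 10, are shown because they had the smallest p-values among the members, a choice made after their values were seen. Capitals mark CCAAT, the GC box GGGCGG and TATAA, each searched on both strands, so that their reverse complements are in capitals too.
Col4a1, chr8:11312777-11313076, minus strand: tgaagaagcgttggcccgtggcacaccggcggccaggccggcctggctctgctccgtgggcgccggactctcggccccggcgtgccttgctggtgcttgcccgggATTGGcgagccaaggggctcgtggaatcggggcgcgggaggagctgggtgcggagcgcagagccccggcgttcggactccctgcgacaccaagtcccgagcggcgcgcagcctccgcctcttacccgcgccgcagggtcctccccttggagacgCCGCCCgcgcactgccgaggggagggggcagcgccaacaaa
Col4a2, chr8:11312555-11312854, plus strand: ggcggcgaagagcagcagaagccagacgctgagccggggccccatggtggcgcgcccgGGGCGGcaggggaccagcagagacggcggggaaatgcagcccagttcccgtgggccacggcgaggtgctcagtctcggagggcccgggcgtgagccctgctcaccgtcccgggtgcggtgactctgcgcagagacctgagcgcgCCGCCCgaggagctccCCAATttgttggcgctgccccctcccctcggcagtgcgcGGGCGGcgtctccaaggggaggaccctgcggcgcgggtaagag
Col3a1, chr1:45311288-45311587, plus strand: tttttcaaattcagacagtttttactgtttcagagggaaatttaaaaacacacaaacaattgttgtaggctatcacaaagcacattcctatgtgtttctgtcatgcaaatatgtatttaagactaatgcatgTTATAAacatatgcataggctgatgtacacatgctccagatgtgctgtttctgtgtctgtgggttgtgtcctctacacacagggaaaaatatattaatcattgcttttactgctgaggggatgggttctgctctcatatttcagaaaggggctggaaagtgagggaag
Col6a1, chr10:76725995-76726294, minus strand: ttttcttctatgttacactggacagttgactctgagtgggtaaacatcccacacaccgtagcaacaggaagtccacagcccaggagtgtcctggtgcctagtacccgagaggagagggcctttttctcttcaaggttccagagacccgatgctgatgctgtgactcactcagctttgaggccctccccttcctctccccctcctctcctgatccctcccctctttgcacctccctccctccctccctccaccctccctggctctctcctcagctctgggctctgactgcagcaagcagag
Col6a2, chr10:76623355-76623654, minus strand: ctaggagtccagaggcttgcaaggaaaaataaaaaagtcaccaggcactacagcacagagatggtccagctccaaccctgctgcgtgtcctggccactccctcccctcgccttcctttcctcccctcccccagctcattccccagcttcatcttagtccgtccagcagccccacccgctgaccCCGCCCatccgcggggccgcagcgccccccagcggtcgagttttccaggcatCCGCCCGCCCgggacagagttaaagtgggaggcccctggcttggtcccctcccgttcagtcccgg
The Col4a1 and Col4a2 windows share 1 GC box within the common bases and hold no whole CCAAT there. The CCAAT of the Col4a1 window lies outside the common bases, and that of the Col4a2 window reaches into them by 1 base. Col3a1 holds TATAA on overlapping positions of both strands, the Col6a2 window holds 3 GC boxes of which 2 overlap, and the Col6a1 window holds none of the searched letters. Col6a2 also has another annotated start, whose window is not printed. A CCAAT was found in 13 of the 38 member windows (34.2%) against 37.4% of all 32851 windows, a GC box in 23 (60.5%) against 35.7%, and TATAA in 7 (18.4%) against 24.9%. These matches describe the letters and are no evidence of binding.

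Libraries held 17937821 to 19987295 reads in the knockout and 27085599 to 29742757 in the wild type, of which 52740 to 91177 fell on collagen genes. Every wild-type library was deeper than every knockout library, so depth and genotype cannot be told apart. The part of depth in the values of members with few reads was not tested. Trim21 was read in every knockout library, at 12.1, 18.9 and 12.8 CPM (reads per 1000000 reads of the library total after TMM scaling, a correction for library composition) against 29.8, 20.4 and 19.5 CPM in wild type, and the difference did not pass (edgeR adjusted p = 0.418). Epithelial content was read from markers such as Epcam, Krt8 and Cdh1, which summed to 7082 to 7205 CPM in the knockout against 6703 to 7389 CPM in wild type over 8 of 8 genes. These are markers of epithelium in general, so they cannot show that a sample was tumour.

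The main collagens of the tumours were Col3a1, Col4a1, Col1a2, Col4a2, Col18a1 and Col1a1. Per kilobase of transcript, Col3a1 averaged 123 RPKM (CPM divided by the length of the annotated principal transcript in kilobases), Col4a1 67.5, Col1a2 48.2, Col4a2 37.2, Col18a1 36.9 and Col1a1 36.2 RPKM over the 6 libraries. Together these 6 genes made up 68.1% of the summed RPKM of all members. Of the 44 members, 10 had a mean of at least 100 CPM, 22 of at least 10 CPM, and 10 a mean under 1 CPM. Almost no reads fell on 4 chains, which the filter on low counts left out of the test. Col6a6 and Col26a1 had 1 read each, both in wild-type replicate 3, Col11a1 had 8 and Col19a1 29 reads over all libraries.

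None of the 40 tested members passed the test over all genes, but most had a higher mean in the knockout. With edgeR's quasi-likelihood test and Benjamini-Hochberg adjustment over 16281 genes, 0 members and 0% of all genes had an adjusted p under 0.05, the smallest among members being 0.322, for Col6a2. The log2 fold change (knockout over wild type) was above 0 for 32 of 40 members (80.0%), against 47.9% of all tested genes, and its median was 0.38 against −0.01. Many members shared an order of libraries, given below, so these 40 values are not separate observations. Summed over all 44 members, the level was 2616, 3878 and 3898 CPM in knockout replicates 1 to 3. In wild-type replicates 1 to 3 it was 3058, 2775 and 2035 CPM, with overlap. At an unadjusted p under 0.05, 8 members were higher (20.0%, against 6.63% of all genes) and 2 were lower in the knockout (against 4.12%), which is 10 of 40 in either direction against 10.7%. All values of the knockout lay above all of the wild type for 8 members (20.0%, against 9.43%) and below for 1 (against 8.47%). The 8 with an unadjusted p were Col6a1, Col6a2, Col3a1, Col1a2, Col4a5, Col14a1, Col16a1 and Col15a1, and the 2 were Col9a3 and Col9a1. Leaving out knockout replicate 2 or knockout replicate 3 left 4 higher members, and leaving out wild-type replicate 3 left 5. The lower members numbered 1 when knockout replicate 1, knockout replicate 2, wild-type replicate 1 or wild-type replicate 2 was left out. With either of these wild-type libraries left out, Col9a1 did not pass the filter on low counts and was not tested. DESeq2 gave an adjusted p for 41 members and called Col6a1 and Col6a2 higher (against 1.41% of genes) and Col9a3 lower (against 0.543%), with adjusted p of 0.021, 0.00606 and 0.033. Limma-voom called 0 members and 0% of genes, and 9 members were higher with it at an unadjusted p under 0.05. The share of all genes at that unadjusted rule is given only for the edgeR fit of all libraries. Counts of members or of processing genes at that rule under any other setting, here and below, therefore have no such share beside them.

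**Figure D1:**
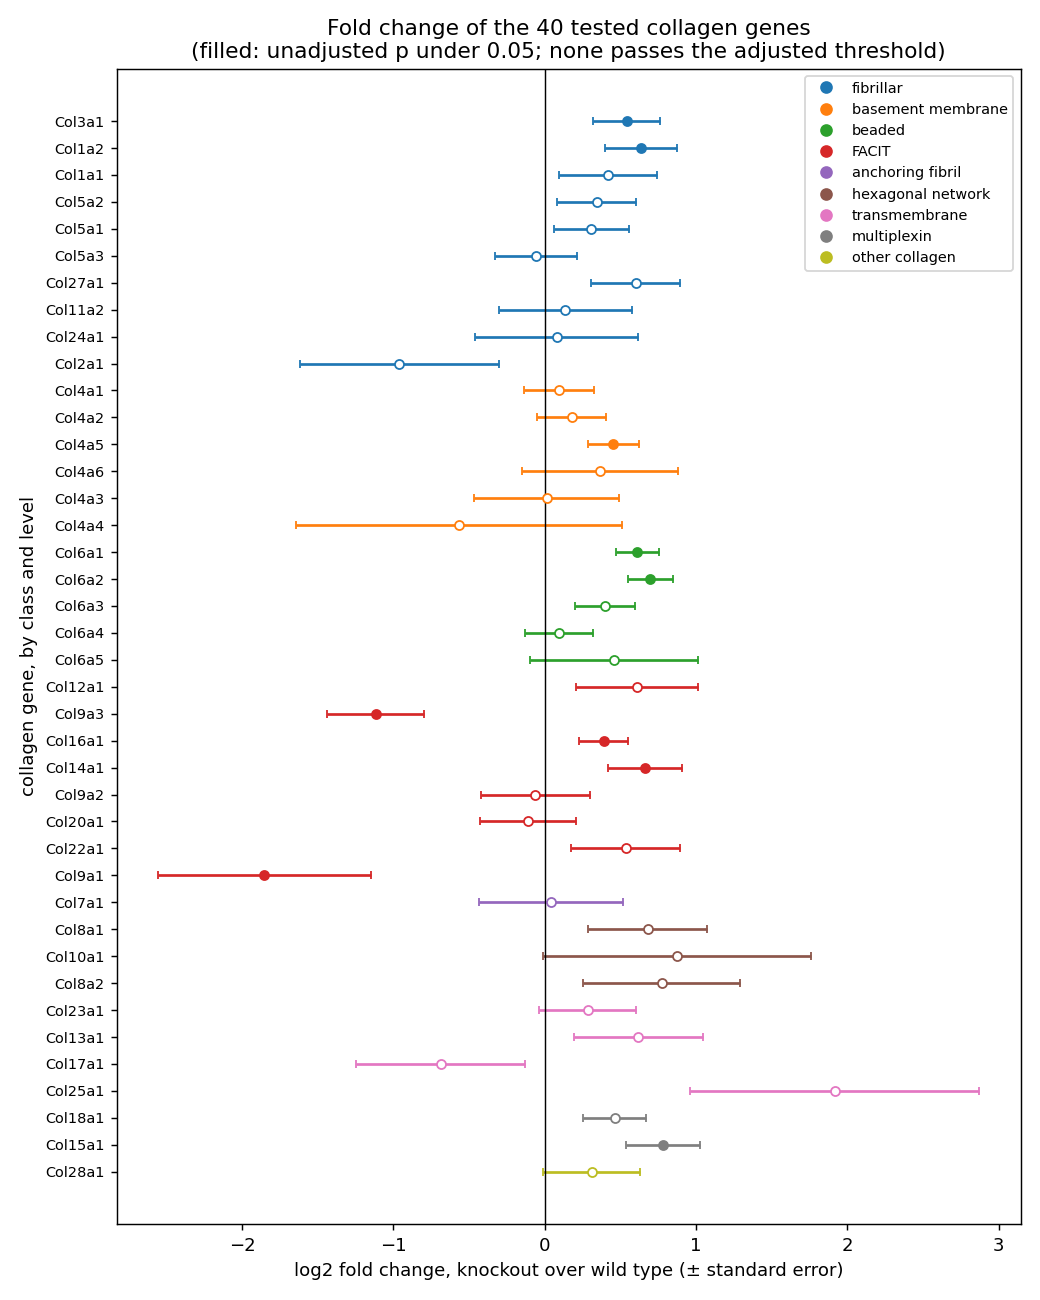
Log2 fold change of the 40 tested collagen genes, knockout over wild type, with the standard error, ordered by class and by level; filled points have an unadjusted p under 0.05 in edgeR and none has an adjusted p under 0.05. The type VI chains Col6a1 and Col6a2 sit at 0.61 and 0.70, and the type IX chains Col9a3 and Col9a1 at −1.12 and −1.85.

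Type VI collagen, the beaded class, was the 1 class of the 4 main ones (fibrillar, basement membrane, beaded and FACIT) whose summed level did not overlap between the groups. The class summed to 411, 489 and 384 CPM in knockout replicates 1 to 3 and 361, 279 and 271 CPM in wild-type replicates 1 to 3. The means were 428 ± 54.4 CPM and 304 ± 49.9 CPM (SD, n = 3 each), a log2 ratio of 0.50. Every tested chain of the class had a positive log2 fold change, from 0.10 to 0.70.

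Col6a1 and Col6a2 encode chains that enter the same type VI monomer. Col6a1, on chromosome 10 from 76708792 to 76726168, measured 138, 153 and 115 CPM in the knockout against 102, 84.3 and 78.6 CPM in wild type. Col6a2, on chromosome 10 from 76595762 to 76623630, measured 110.0, 121 and 85.5 CPM in the knockout against 69.4, 58.3 and 67.5 CPM in wild type. For both genes every knockout library was above every wild-type library, by the narrowest margin in knockout replicate 3. The log2 fold change was 0.61 (standard error 0.14) for Col6a1 and 0.70 (standard error 0.15) for Col6a2, with edgeR adjusted p of 0.334 and 0.322. The summed smooth muscle markers (950.0 to 1556 against 339.8 to 869 CPM) and pericyte markers (428 to 570.3 against 310.1 to 382 CPM) did not overlap between the groups either, and their part in the type VI values was not tested. Col6a3, the long chain that joins them, measured 125, 146 and 122 CPM in the knockout against 130.2, 90.7 and 76.3 CPM in wild type. Wild-type replicate 1 exceeded 2 of the 3 knockout libraries, so the groups overlapped (log2 fold change 0.40, standard error 0.20, edgeR adjusted p = 0.506). That value was 0.24 with wild-type replicate 3 left out and 0.65 with wild-type replicate 1 left out.

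The alternative type VI chains were less abundant. Col6a4 averaged 47.1 ± 11.3 CPM in the knockout against 44.0 ± 9.78 CPM in wild type, and Col6a5 9.46 ± 5.17 and 6.90 ± 4.42 CPM (SD, n = 3 each). Their groups overlapped. The log2 fold change of Col6a4 was 0.10 and turned negative without knockout replicate 2 (−0.02) or wild-type replicate 3 (−0.03).

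Fibrillar collagens made up the largest share of the collagen reads, and the means of 8 of 10 tested chains were higher in the knockout. Their sum was 1305, 1919 and 1851 CPM in the knockout against 1464, 1315 and 827 CPM in wild type. Knockout replicate 1 lay below wild-type replicates 1 and 2, so the groups overlapped. The log2 ratio of the mean sums was 0.49, and 0.28 without wild-type replicate 3, the lowest library.

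Col3a1, the type III chain of distensible tissues, measured 672, 907 and 859 CPM in the knockout against 624, 666 and 383 CPM in wild type. The groups did not overlap, but knockout replicate 1 exceeded wild-type replicate 2 by a small margin. The log2 fold change was 0.54 (standard error 0.22, edgeR adjusted p = 0.455), and it was 0.33 without wild-type replicate 3. Col1a2, a type I chain, measured 223, 367 and 350.4 CPM in the knockout against 239, 218 and 149 CPM in wild type, with 1 knockout library below the highest wild-type library (log2 fold change 0.63, standard error 0.24, edgeR adjusted p = 0.423). Its partner Col1a1 measured 178, 290.2 and 270 CPM in the knockout against 269, 171 and 112 CPM in wild type. Wild-type replicate 1 was as high as knockout replicate 3 for Col1a1, and the log2 fold change was 0.42 (standard error 0.32, edgeR adjusted p = 0.653). Single libraries set that value, which was 0.16 with wild-type replicate 3 left out and 0.80 with wild-type replicate 1 left out.

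Type V collagen, which is built into type I fibrils and limits their width, overlapped between the groups in each of its chains. Col5a2 averaged 176 ± 43.2 CPM in the knockout against 138 ± 41.5 CPM in wild type, and Col5a1 90.4 ± 19.6 and 73.0 ± 21.1 CPM (SD, n = 3 each). For Col5a2 the log2 fold change was 0.34, but 0.57 with wild-type replicate 1 left out, 0.20 with knockout replicate 3 left out and 0.13 with wild-type replicate 3 left out. Col5a3 had a log2 fold change of −0.06 and was highest in wild-type replicate 1, at 37.3 CPM. Col27a1 had 0.60 and averaged 20.2 ± 6.03 and 13.3 ± 3.95 CPM. Col24a1 and Col11a2 stayed between 1.64 and 7.08 CPM. Col2a1, the cartilage fibril chain, had 3 to 31 reads a library.

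**Figure D2:**
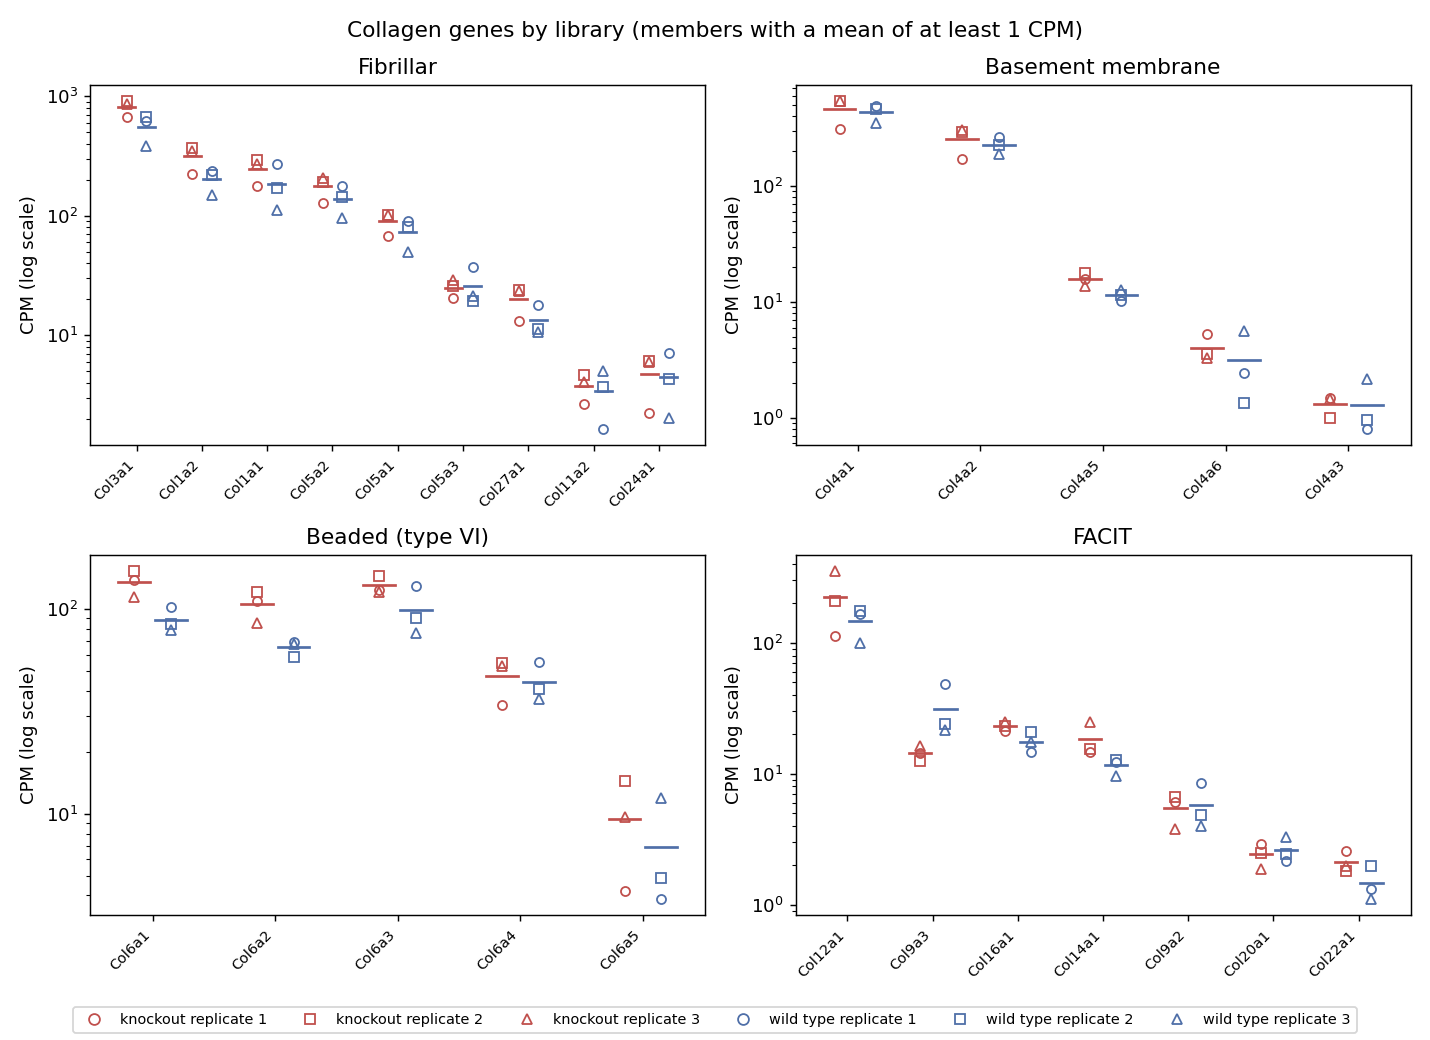
CPM of each collagen gene with a mean of at least 1 CPM in the 4 main classes, on a log scale; symbols are libraries and short lines are group means. Col6a1, Col6a2, Col3a1, Col4a5, Col14a1 and Col16a1 are separated between the groups with the knockout above, and Col9a3 with the knockout below.

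The basement membrane collagens held a smaller share of the collagen signal in each knockout library than in any wild-type library. Type IV genes took 19.2%, 21.9% and 22.1% of the summed collagen CPM in the knockout against 25.0%, 25.2% and 27.4% in the wild type. The means were 21.1 ± 1.6% and 25.9 ± 1.4% (SD, n = 3 each). The fibrillar share was 49.9%, 49.5% and 47.5% in the knockout and 47.9%, 47.4% and 40.7% in the wild type, with overlap. The beaded and FACIT shares also overlapped. With 3 samples against 3, an exact two-sided permutation test cannot give a p under 0.1, so these shares are given as values. The summed level of the type IV genes overlapped, at 502, 850 and 860 CPM in the knockout against 764, 700 and 559 CPM in wild type. Its log2 ratio was 0.13. Leaving out knockout replicate 1 or wild-type replicate 1 raised it to 0.35 or 0.23, and leaving out knockout replicate 2, knockout replicate 3 or wild-type replicate 3 lowered it to 0.02, 0.003 or 0.01.

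Col4a1 and Col4a2, the head-to-head pair shown above, ranked the 6 libraries in the same order. Col4a1 measured 309, 536 and 537 CPM in the knockout against 488, 461 and 348 CPM in wild type. Col4a2 measured 171, 291 and 303 CPM in the knockout against 263, 225 and 189 CPM in wild type. For both, knockout replicate 1 was the lowest of the 6 libraries and knockout replicates 2 and 3 the highest. The log2 fold changes were 0.09 (standard error 0.23) and 0.18 (standard error 0.23), with edgeR adjusted p of 0.898 and 0.786, and that of Col4a1 was negative when knockout replicate 2, knockout replicate 3 or wild-type replicate 3 was left out (−0.03, −0.03 and −0.04). Col4a2 was at 0.08, 0.03 and 0.07 with the same libraries left out, at 0.41 with knockout replicate 1 left out and at 0.30 with wild-type replicate 1 left out. Col4a5, an X-linked chain of a less widespread type IV network, measured 15.7, 17.7 and 13.7 CPM in the knockout against 10.1, 11.5 and 12.8 CPM in wild type. Its groups did not overlap, with knockout replicate 3 just above wild-type replicate 3 (log2 fold change 0.45, standard error 0.17, edgeR adjusted p = 0.418). Col4a6 averaged 4.03 ± 1.08 and 3.13 ± 2.20 CPM, and Col4a3 1.31 ± 0.278 and 1.30 ± 0.739 CPM (SD, n = 3 each). Col4a4 had 2 to 43 reads a library, the most in wild-type replicate 3.

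Ratios between chains within a library do not depend on how libraries are scaled. Of 7 ratios computed per kilobase, 1 did not overlap between the groups. The ratio of Col4a1 to Col3a1 was 0.387, 0.497 and 0.527 in the knockout and 0.658, 0.582 and 0.764 in the wild type. The ratios between partner chains overlapped. Col4a1 to Col4a2 lay between 1.73 and 2.00, Col5a1 to Col5a2 between 0.385 and 0.442, and Col6a1 to Col6a2 between 1.12 and 1.42. Col1a1 to Col1a2 was 0.680 to 0.719 in 5 libraries and 1.02 in wild-type replicate 1. The ratio of Col3a1 to Col1a1 ran from 2.47 to 4.16 and that of Col6a3 to Col6a1 from 0.411 to 0.580, with overlap.

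The FACIT class held members with lower and with higher values in the knockout. Of 8 tested members, 4 had a positive and 4 a negative log2 fold change. Their sum, 175, 270 and 426 CPM in the knockout against 255, 243 and 157 CPM in wild type, was mostly Col12a1. The log2 ratio of the sums was 0.41. It was 0.03 with knockout replicate 3 left out, 0.22 with wild-type replicate 3 left out and 0.68 with knockout replicate 1 left out.

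Col9a3 was the member whose knockout values all lay below the wild-type values. It encodes a chain of type IX collagen, best known from the surface of cartilage fibrils, and lies on chromosome 2 from 180597790 to 180622189. It measured 14.5, 12.6 and 16.3 CPM in the knockout against 48.8, 24.0 and 21.5 CPM in wild type. All 3 knockout libraries lay below all wild-type libraries, and wild-type replicate 1 stood highest. The log2 fold change was −1.12 (standard error 0.32, edgeR adjusted p = 0.349), and −0.65 without wild-type replicate 1. The 3′ end of Col9a3 shares 234 exon bases with Tcfl5 on the opposite strand, and whether counting used strand is not stated in the labels. Tcfl5 had 17 to 21 reads in the knockout and 36 to 81 in the wild type, and Col9a3 had 229 to 316 and 579 to 1456. The part of reads shared between these genes was not tested.

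The other type IX chains differed from Col9a3 in level. Col9a1 had 2, 3 and 9 reads in the knockout and 39, 27 and 12 in the wild type, which is 0.0992 to 0.465 CPM against 0.445 to 1.31 CPM, with slight overlap (log2 fold change −1.85, standard error 0.70, edgeR adjusted p = 0.43). Col9a2 averaged 5.51 ± 1.54 CPM in the knockout against 5.74 ± 2.39 CPM in wild type (SD, n = 3 each). Cartilage and bone markers were at or near 0. Over 7 of 7 genes they summed to 1.24 to 2.69 CPM in the knockout against 1.08 to 1.34 CPM in wild type, and Matn3 had no read.

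Col14a1, Col16a1 and Col12a1, FACIT members of fibrous tissue, had higher means in the knockout. Col14a1 measured 14.6, 15.5 and 25.0 CPM in the knockout against 12.4, 12.7 and 9.64 CPM in wild type. Col16a1 measured 21.3, 23.2 and 24.7 CPM in the knockout against 14.6, 20.8 and 17.5 CPM in wild type. Neither gene's groups overlapped. Their log2 fold changes were 0.66 (standard error 0.24) and 0.39 (standard error 0.16), with edgeR adjusted p of 0.418 and 0.461. Without knockout replicate 3 that of Col14a1 was 0.38. Col12a1, which bridges fibrils, spread more widely, at 112, 207 and 352 CPM in the knockout against 166, 175 and 98.9 CPM in wild type. Its log2 fold change of 0.61 had a standard error of 0.40 and was 0.12 with knockout replicate 3 left out, 0.39 with wild-type replicate 3 left out and 0.94 with knockout replicate 1 left out (edgeR adjusted p = 0.6 with all libraries). Col20a1 and Col22a1 had log2 fold changes of −0.11 and 0.53 at means of 1.46 to 2.62 CPM.

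**Figure D3:**
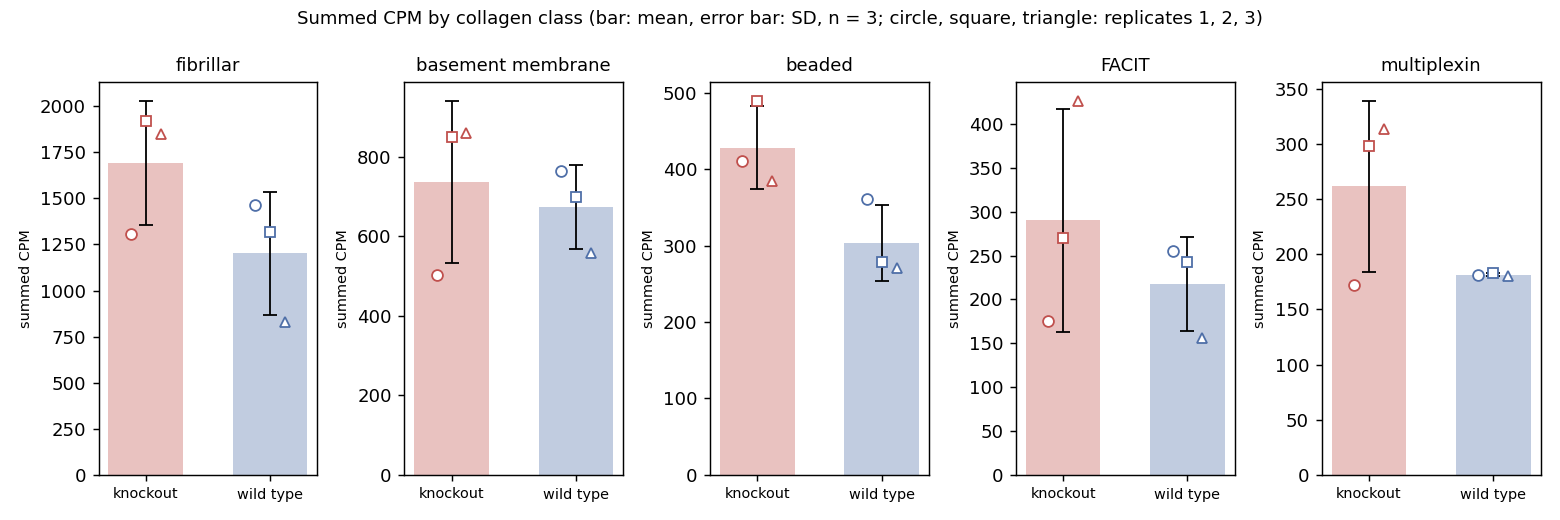
Summed CPM of the members of 5 collagen classes, with the mean, the SD and each library. The beaded class is separated between the groups (384 to 489 against 271 to 361 CPM), and the other classes overlap.

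The multiplexins differed in their spread between the groups. Col15a1, a basement membrane collagen of vessels and muscle, measured 37.0, 56.2 and 77.7 CPM in the knockout against 32.6, 33.5 and 33.3 CPM in wild type. The wild-type libraries were nearly equal and every knockout library was above them. The log2 fold change was 0.78 (standard error 0.25, edgeR adjusted p = 0.379), and 0.49 without knockout replicate 3. Col18a1, the precursor of endostatin, measured 136, 242 and 236 CPM in the knockout against 149, 150 and 147 CPM in wild type, with knockout replicate 1 below all wild-type libraries (log2 fold change 0.46, standard error 0.21, edgeR adjusted p = 0.482). That value was 0.70 with knockout replicate 1 left out, 0.32 with knockout replicate 2 left out and 0.35 with knockout replicate 3 left out.

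Collagens of other classes were at 22.4 CPM or less in every library. Col8a1, a short-chain collagen of vessel walls, averaged 18.7 ± 3.38 CPM in the knockout against 11.6 ± 6.92 CPM in wild type (SD, n = 3 each). Its log2 fold change of 0.68 was 1.28 with wild-type replicate 2 left out and 0.41 with wild-type replicate 3 left out. Col8a2 and Col10a1 had 2 to 31 reads a library. The transmembrane collagens Col23a1 and Col13a1 had log2 fold changes of 0.28 and 0.62 with overlap. Single libraries set both: Col13a1 was at 0.04 with knockout replicate 3 left out, and Col23a1 at 0.08, 0.75 or 0.11 with wild-type replicate 1, 2 or 3 left out and at 0.18 with knockout replicate 2 left out. Col25a1 had 12, 10 and 9 reads in the knockout and 0, 10 and 2 in the wild type, so although its CPM values did not overlap, its difference rests on few reads. Col28a1 averaged 4.59 ± 1.08 and 3.71 ± 1.16 CPM (SD, n = 3 each).

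Col17a1 and Col7a1, known from stratified epithelium, were high in wild-type replicate 3. Col17a1, of the hemidesmosome, measured 2.78, 2.36 and 0.931 CPM in the knockout against 1.74, 2.57 and 5.49 CPM in wild type. Its log2 fold change was −0.69 (standard error 0.56) with all libraries but −0.35 with knockout replicate 3 left out and −0.09 with wild-type replicate 3 left out. Col7a1, which anchors the epithelial basement membrane, measured 5.06, 8.18 and 13.8 CPM in the knockout against 8.29, 4.54 and 13.5 CPM in wild type, so a library of each group was high. Its log2 fold change was 0.04, but −0.41 with knockout replicate 3 left out and −0.27 with wild-type replicate 2 left out. The squamous epithelium list summed to 21.8 to 50.9 CPM in the knockout against 23.3, 42.8 and 93.2 CPM in wild type over 6 of 6 genes. Among them Krt5 and Trp63 were at 8.27 and 6.49 CPM in wild-type replicate 3, at 0 in the knockout libraries and at most 0.101 CPM in the other wild-type libraries. Krt15 and Krt6a were also highest in wild-type replicate 3, at 38.4 and 10.2 CPM, whereas Krt14 and Dsg3 were highest in knockout replicate 2, at 23.9 and 13.7 CPM, against 23.2 and 6.64 CPM in wild-type replicate 3. Their part in the Col17a1 and Col7a1 values was not tested.

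Across libraries the members fell into a pattern that the groups alone do not describe. Among the 22 members with a mean of at least 10 CPM, knockout replicate 1 was the lowest knockout library for 15, and wild-type replicate 3 the lowest wild-type library for 16. Col3a1, Col1a1, Col1a2, Col5a1, Col5a2, Col4a1 and Col4a2 followed both orders. Col6a1, Col6a2, Col6a3 and Col4a5 did not, since their lowest knockout library was replicate 3.

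**Figure D4:**
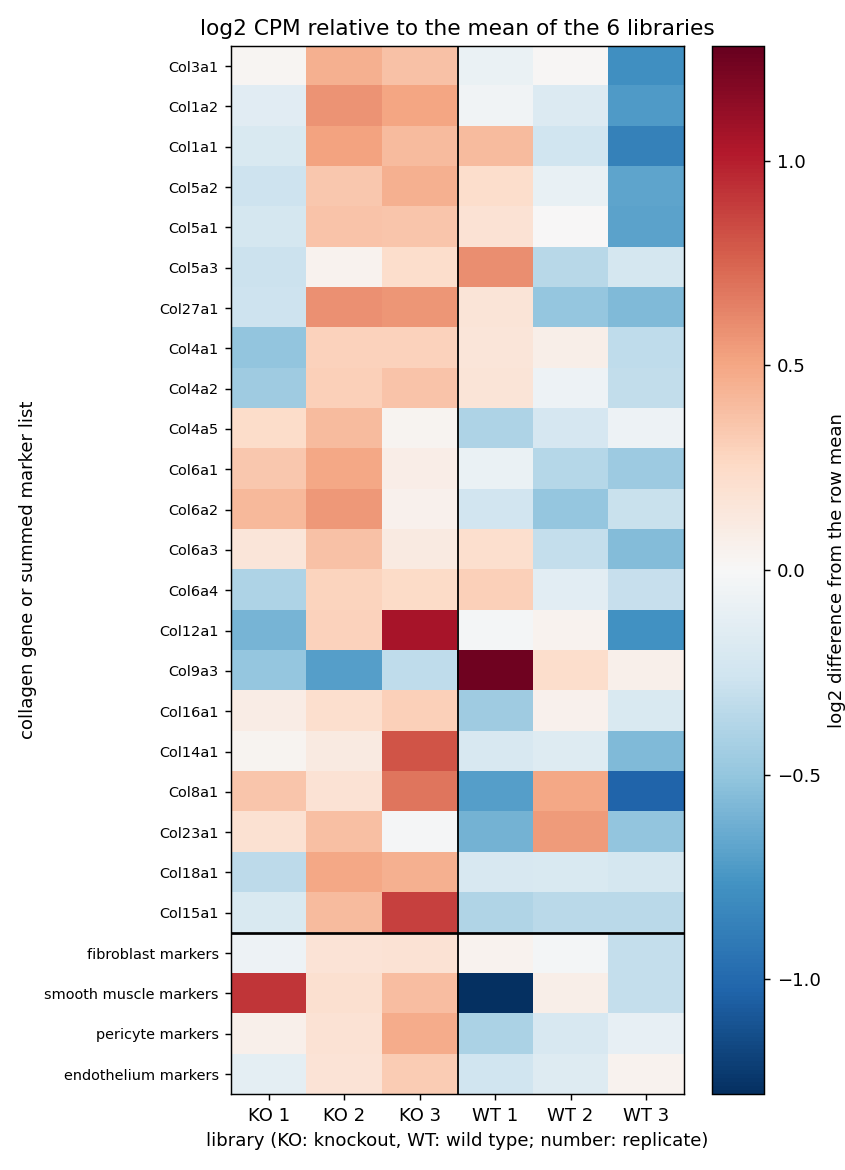
Log2 CPM of the 22 collagen genes with a mean of at least 10 CPM and of 4 summed marker lists, each relative to its mean over the 6 libraries. Knockout replicate 1 is the lowest knockout library for 15 genes but is high for Col6a1, Col6a2 and the smooth muscle markers, and wild-type replicate 3 is the lowest wild-type library for 16 genes.

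Markers of stromal cells differed between libraries too. The smooth muscle list was detected with 10 of 10 genes and was highest in knockout replicate 1 and lowest in wild-type replicate 1, and the pericyte list was detected with 6 of 6. Giving the knockout first, fibroblast genes other than collagens summed to 914 to 1086 CPM and 772 to 987 CPM over 10 of 10, lowest in wild-type replicate 3, and endothelial genes to 238 to 324 CPM and 217 to 267 CPM over 8 of 8. Leukocyte genes summed to 149.7 to 267 and 164 to 201 CPM over 6 of 6, and enteric glia genes to 4.94 to 9.28 and 4.33 to 12.9 CPM over 4 of 4, with overlap in each. Within the glia list, Sox10 was at 8.12 CPM in wild-type replicate 3 and at most 1.19 CPM in any other library. Mesothelial genes other than Krt5, which the squamous list also holds, summed to 4.37 to 9.98 and 5.26 to 7.65 CPM over 4 genes, and to 7.11 to 13.5 CPM in wild type with Krt5. The part of these cell types in the collagen values was not tested.

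Genes that process collagen were read against the same background. Of 64 listed genes found in the files, 62 were tested and 45 had a positive log2 fold change (72.6%, against 47.9% of all genes). The median was 0.21. At an unadjusted p under 0.05, 12 were higher (19.4%, against 6.63% of all genes) and 0 were lower (against 4.12%), and 0 passed the adjusted threshold. All knockout values lay above all wild-type values for 9 tested genes (14.5%, against 9.43% of all genes) and below for 5 (against 8.47%). The count of 12 was 6 with knockout replicate 3 or with wild-type replicate 3 left out.

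The genes that cleave or aid the cleavage of collagen propeptides had positive values throughout, 9 of 9, with a median of 0.66. Pcolce, an enhancer of the procollagen C-proteinase, measured 19.1, 18.7 and 19.2 CPM in the knockout against 9.39, 12.5 and 13.9 CPM in wild type. The groups did not overlap, with an SD of 0.236 CPM in the knockout and 2.30 CPM in wild type (log2 fold change 0.67, standard error 0.17, edgeR adjusted p = 0.343). Adamts3, a procollagen N-proteinase, had 0.86 (standard error 0.28), at 4.86 to 8.95 CPM against 3.11 to 4.20 CPM. Mep1a, a meprin subunit that is also a brush border protease, had 1.43 (standard error 0.41), at 42.8 to 59.1 CPM against 7.85 to 27.4 CPM. Its adjusted p was 0.349 and that of Adamts3 0.396 with edgeR.

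Enzymes that modify the chains inside the cell were split, 8 positive and 7 negative of 15. The proline hydroxylase gene P3h2 had 0.92, while the isomerase gene Ppib and the collagen galactosyltransferase gene Colgalt1 had −0.26 and −0.22. All knockout values lay below all wild-type values for 3 of these 15 genes (against 8.47% of all genes), Ppib and Colgalt1 among them. They lay above for 1, P3h2 (6.67%, against 9.43% of all genes). In the folding and export list, 8 of 9 were positive (88.9%, against 47.9% of all genes). Creb3l1, a transcription factor of secretory cells, had 0.77, Fkbp14 0.55 and the export receptor gene Mia3 0.28. The groups overlapped for Creb3l1 and Mia3. The collagen chaperone Serpinh1 measured 90.7, 147 and 154 CPM in the knockout against 124, 123 and 90.8 CPM in wild type, with overlap. The lysyl oxidases of the crosslinking list were all positive, 5 of 5, from 0.10 to 0.64, led by Loxl1 at 0.64, with Loxl3 at 0.21 and Loxl2 at 0.20. Each of the 5 overlapped between the groups. The edgeR adjusted p of the genes named in these 3 lists lay between 0.418 and 0.855.

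Collagen receptors and uptake genes were positive for 5 of 9 tested. The fibrillar collagen receptor gene Ddr2 had a log2 fold change of 0.76, the integrin gene Itga11 0.94 and the endocytic receptor gene Mrc2 0.70 (edgeR adjusted p of 0.42, 0.397 and 0.374). The groups overlapped for Ddr2. All knockout values lay above all wild-type values for 2 tested genes of this list, Itga11 and Mrc2 (22.2%, against 9.43% of all genes). They lay below for 1 of the 9 (against 8.47%). Among the basement membrane partners, 10 of 15 were positive with a median of 0.17. The muscle and vessel laminin genes Lama2 and Lama4 had 0.68 and 0.44 and the perlecan gene Hspg2 0.40, with edgeR adjusted p between 0.397 and 0.429 for these 3. The groups overlapped for Lama4 and Hspg2. All knockout values lay above all wild-type values for 1 gene of this list, Lama2 (6.67%, under the 9.43% of all genes). They lay below for 1 of the 15 (against 8.47% of all genes), the laminin gene Lama5 (log2 fold change −0.29, edgeR adjusted p = 0.497).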

How the data were processed

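RNA of 6 colon tumour samples (3 knockout, 3 wild type) was sequenced after Trizol extraction and ribosomal RNA depletion, per the labels' protocols. The authors deposited whole-number read counts per gene symbol. The submitters' processing notes name mm10, TopHat2, edgeR and limma; no counter, strand setting or annotation is named there. Counts of same-group libraries differed beyond sampling noise (chi-square per degree of freedom 20.9 to 103), so none looks deposited more than once. This does not show that they come from separate animals.

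All genes were fitted in R 4.3.3 with edgeR 4.0.16 (quasi-likelihood, TMM, filterByExpr, group as the only term, two-sided, Benjamini-Hochberg), which kept 16281 genes and 40 members. Class sums and ratios got no test. Alternatives used DESeq2 1.42.0, limma-voom (limma 3.58.1), other scalings and filters, the replicate block and leaving out each library. The fits were tested on simulated data, where 49% of changes with a log2 fold change of 1 and 90% of those of 2 were recovered. Recovery of smaller changes is not given, so the 0 members called do not show that collagen levels were equal. Lengths and positions come from GENCODE M21 of GRCm38 and promoters from RefSeq. Named members were the 4 highest of each class per kilobase and those with an unadjusted p under 0.05, and per list of processing genes the 3 with the smallest p. Members outside that rule, and Serpinh1, Tcfl5 and Lama5, were added after their values were seen. The members and lists were chosen with earlier results of these data known.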

Additional observations from a re-analysis of the deposited data

How the results depend on the processing

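With edgeR and limma-voom, 0 members had an adjusted p under 0.05 under any setting tried, and DESeq2 called 3. The members higher at an unadjusted p under 0.05 numbered 8 in edgeR, between 4 and 10 when single libraries were left out, and the lower members 2, between 1 and 2. With a filter of at least 1 CPM in 3 libraries, 1 member was lower, since Col9a1 was then not tested. The replicate numbers recur in both groups, but the deviations of same-numbered libraries correlated at −0.19, −0.23 and −0.09, so the numbers were not taken as pairs. With the replicate block, 3 members were higher and 1 was lower at an unadjusted p under 0.05. The 12 processing and receptor genes numbered between 6 and 18 when single libraries were left out. None of these counts under alternative settings has the share of all genes beside it, so their changes cannot be set against the background. Of 358 values of the 28 named members under alternatives, 348 kept direction and side of the adjusted threshold and 3 passed it, all in DESeq2. The other 7 changed sign, each when a library was left out, for Col4a1 (from −0.043 to 0.32, also −0.029 and −0.034), Col6a4 (from −0.025 to 0.29, also −0.019) and Col7a1 (from −0.41 to 0.49, also −0.27). The cause was not tested. Apart from DESeq2, the settings called 0 of all genes, or 1 with wild-type replicate 3 left out. Values could therefore hardly change side of the threshold in them. Keeping direction also allowed large moves, such as Col13a1 from 0.62 to 0.04 with knockout replicate 3 left out. Low counts limit Col9a1, Col25a1, Col10a1, Col8a2, Col4a4 and the 4 untested members.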
